A study of Mus musculus with 653 samples.

Results

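*Car2* and *Cd44* were followed in every sequenced cell of the embryonic mouse liver, 2 genes of the 54195 in the deposited count table. They were chosen because they were used as markers of a cluster named cholangiocyte-like, and the question was with which other reads they occur in the same cell. The sets of genes below served for this: *Klf1* and *Gata1*, transcription factors of red cell development (erythroid), *Ptprc* and *Spi1*, the CD45 antigen and the PU.1 factor of white cells (leukocyte), and *Krt19*, *Sox9* and *Epcam*, genes of bile duct epithelium (biliary). The cells fall into 4 groups by embryonic day and sort, and into library pools 1 to 5. At E10.5 the bulk sort gave 42, 41, 41, 42 and 37 cells in these pools and the Lgr5-GFP+ sort 45, 47, 40, 41 and 38. At E13.5 the bulk sort gave 34, 34, 33, 34 and 24 cells, and the Lgr5-GFP+ sort 80 cells (13, 27, 19, 14 and 7). Lgr5-EGFP-IRES-creERT2 males, a C57BL/6 knock-in that carries GFP under the endogenous *Lgr5* locus, had been crossed with MF1 females, and no group was treated. Bulk cells had been sorted by FACS for the surface antigen Liv2 and against CD31 and CD45, and Lgr5-GFP+ cells additionally for GFP. Each sample is 1 cell and no animal, litter or sort is named, so that each group counts as 1 sample, no p-value can be given, and all intervals (95%, exact) cover counting error only.

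*Car2* encodes carbonic anhydrase II, a cytosolic enzyme that interconverts CO2 and bicarbonate and is abundant in red cells as well as in secretory epithelia. *Cd44* encodes a membrane receptor for hyaluronan, carried by many blood cells and their progenitors and also by mesenchymal and some epithelial cells. The embryonic liver is a site of blood formation from E10.5 on, and it builds its bile ducts from hepatoblasts only later. Neither gene on its own therefore belongs to a single lineage in this organ.

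*Car2* (ENSMUSG00000027562) lies on chr3:14886273-14900770 of GRCm38, plus strand, with no overlapping gene in the annotation and 2422 exonic bases. *Cd44* (ENSMUSG00000005087) lies on chr2:102811141-102901665, minus strand, with 6776 exonic bases. The only gene that overlaps it, the small RNA gene *Gm23731*, has 0 reads. The 250 bases before the RefSeq start of *Cd44* (chr2:102901666-102901915, minus strand, GRCm38.p6) are shown because *Cd44* was read in many cells together with the erythroid and leukocyte factors that bind GATA, KLF and ETS type motifs, and the capitals mark matches to these motifs on either strand.
Cd44, upstream: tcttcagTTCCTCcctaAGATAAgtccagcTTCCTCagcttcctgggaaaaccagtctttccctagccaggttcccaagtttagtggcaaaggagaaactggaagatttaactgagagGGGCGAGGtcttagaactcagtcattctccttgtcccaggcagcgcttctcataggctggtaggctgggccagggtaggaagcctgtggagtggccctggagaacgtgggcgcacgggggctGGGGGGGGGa
The GATA motif was searched as AGATAA and AGATAG. It was also searched with T as its first letter, as TGATAA and TGATAG. It matched 1 time, and 27.1% of 27025 RefSeq promoters of the same length hold it. The ETS motif (GAGGAA) matched 2 times and is held by 23.1% of the promoters. The KLF motif (CCNCNCCC) matched 3 times, of which 2 overlap each other in the run of G, and 45.6% of the promoters hold it. These matches describe letters and not sites. For *Car2*, no promoter sequence is shown.

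A cell is called positive for a gene with more than 10 reads. Depth was alike in the groups, with group medians between 1092637 and 1260402 reads per cell, but the 5 library pools, each of which holds cells of all 4 groups, differed in detection. In pools 1 and 2, a cell had a median of 1607.5 and 1534 genes with more than 10 reads, against 4442, 4633 and 4063.5 in pools 3, 4 and 5. The groups also differed in the reads of other cell types. The 20 genes of an erythroid list (all but *Zfpm1*, which is listed at 0) summed to 1463 RPM in E10.5 bulk and 12764 RPM in E13.5 bulk, and the 10 genes of a hepatoblast list to 634 and 61.7 RPM. RPM stands for reads per 1000000 reads, here with the reads of all cells in a group added up first. Of the E13.5 bulk cells, 83.02% were positive for *Klf1* or *Gata1* and 20 (12.6%) for *Ptprc* or *Spi1*. Of these, 8 (5.03% of the group) were positive for *Ptprc*, which encodes the CD45 that the sort was against, and all 20 for *Spi1*. Fewer cells of a type and less RNA per cell can be told apart here only as far as single cells show it.

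*Car2* was high in nearly every E13.5 bulk cell and in a minority of the cells of the other groups. In E10.5 bulk, the lowest cell had 0 RPM, the median 6.20 RPM and the highest 4630 RPM, and 79 cells were positive (38.9%, 32.2 to 45.99%). In E10.5 Lgr5-GFP+ cells the median was 0 RPM and the highest 880.1 RPM, with 13 cells positive (6.16%, 3.32 to 10.3%). In E13.5 bulk cells the values ran from 1.34 over a median of 2704 to 16652 RPM, and 150 cells were positive (94.3%, 89.5 to 97.4%). In E13.5 Lgr5-GFP+ cells the median was 4.04 RPM and the highest 6324 RPM, with 25 of 80 cells positive (31.2%, 21.3 to 42.6%). The ranges of all 4 groups overlap, while the medians place E13.5 bulk far above the rest.

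Summed over cells, *Car2* stood at 305 RPM (303 to 307) in E10.5 bulk and 3470 RPM (3461 to 3479) in E13.5 bulk, a log2 ratio of 3.51 (2.55 to 6.37 over the 5 pools). In this comparison 14.8% of the 16440 genes with at least 100 reads were more than 2-fold higher at E13.5, and the median gene had a log2 ratio of -0.38. In Lgr5-GFP+ cells *Car2* was 10.9 RPM (10.48 to 11.3) at E10.5 and 250 RPM (247 to 253) at E13.5, a log2 ratio of 4.52, where 22.8% of 17190 genes were more than 2-fold higher. Pool 1 alone went the other way there (log2 ratio -0.46), where the 13 E13.5 Lgr5-GFP+ cells had at most 16 *Car2* reads and summed to 8.30 RPM. At both stages *Car2* was lower in Lgr5-GFP+ than in bulk cells, with log2 ratios of -4.81 at E10.5 and -3.80 at E13.5, in all 5 pools each. More than 2-fold lower were 15.9% of 17583 genes at E10.5 and 23% of 15151 at E13.5. No test stands behind these ratios, since each group is 1 sample.

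**Figure D1:**
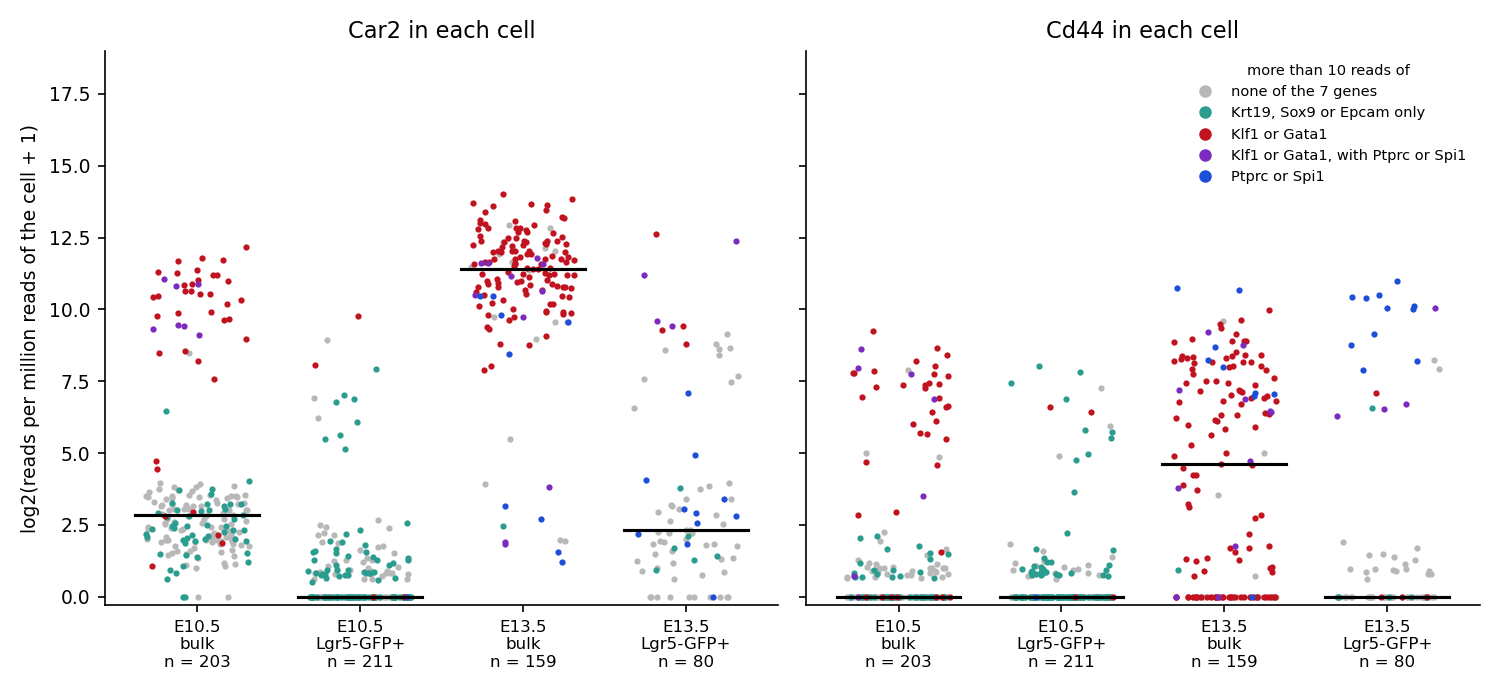
*Car2* (left) and *Cd44* (right) in each cell by group, as log2 of the RPM of the cell plus 1, with the group median as a black line and the colour showing which of the 7 erythroid, leukocyte and biliary genes had more than 10 reads. *Car2* forms a low and a high band in E10.5 bulk, the high band being mostly red points, and the top *Cd44* points of E13.5 Lgr5-GFP+ are mostly blue.

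Low numbers of *Car2* reads were widespread. In E10.5 bulk, 98.03% of the cells had at least 1 *Car2* read, with a median of 7 reads, against 91 cells (43.1%) and a median of 0 in E10.5 Lgr5-GFP+ cells. The threshold of 10 reads falls inside this low band. In E10.5 bulk of pool 1, 23 of 42 cells were positive (54.8%) with a median of 11 reads, but only 1 cell had more than 100 reads, and the level was 42.3 RPM. In pool 4, 18 of 42 cells were positive, 17 of them with more than 100 reads, and the level was 605 RPM. With more than 100 reads as the limit, 40 E10.5 bulk cells (19.7%, 14.5 to 25.9%) and 92.5% of the E13.5 bulk cells (87.2 to 96.04%) remained. Among cells of a type thought to lack the gene, 5 of 64 cells with a hepatoblast profile (at least 3 genes of the list with more than 10 reads, and no erythroid or leukocyte gene) were *Car2* positive (7.81%), at a median depth of 1242517 reads. *Car2* positive cells as a whole had a median depth of 1181327 reads. This is no separate measure for E10.5 Lgr5-GFP+ cells, since 58 of the 67 cells that met the hepatoblast list were of that group. The 13 *Car2* positive E10.5 Lgr5-GFP+ cells had between 43 and 536 *Car2* reads, and 9 of them had more than 100. Whether the low band of E10.5 bulk is expression was not tested.

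*Cd44* was positive in fewer cells and at lower counts. In E10.5 bulk the median was 0 RPM and the highest cell had 605 RPM, with 36 cells positive (17.7%, 12.7 to 23.7%). In E10.5 Lgr5-GFP+ cells the median was 0 RPM and the highest 260 RPM, with 15 positive (7.11%, 4.03 to 11.45%). In E13.5 bulk the values ran from 0 over a median of 23.9 to 1708 RPM, with 89 cells positive (55.97%, 47.9 to 63.8%). In E13.5 Lgr5-GFP+ cells the median was 0 RPM and the highest 2027 RPM, with 19 of 80 positive (23.8%, 14.9 to 34.6%). Among the 64 cells with a hepatoblast profile, 3 were *Cd44* positive (4.69%, 0.977 to 13.1%). *Cd44* positive cells had a median depth of 1167464 reads. The highest single cells were E13.5 Lgr5-GFP+, while the group with the most positive cells was E13.5 bulk.

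The summed *Cd44* level was 32.7 RPM (31.98 to 33.4) in E10.5 bulk, 6.49 RPM (6.19 to 6.81) in E10.5 Lgr5-GFP+, 135.3 RPM (133.6 to 137.02) in E13.5 bulk and 183.7 RPM (180.98 to 186.5) in E13.5 Lgr5-GFP+. The stage log2 ratio was 2.05 in bulk (1.29 to 8.16 over pools) and 4.82 in Lgr5-GFP+ cells, where pool 2 alone was negative (-5.18, with 0 positive cells of 27). Both are more than 2-fold, as are the 14.8% and 22.8% of genes given above. Relative to bulk, *Cd44* in Lgr5-GFP+ cells had a log2 ratio of -2.33 at E10.5 and 0.44 at E13.5. In pools 3, 4 and 5 each, this ratio was negative at E10.5 (-2.48, -1.83 and -3.69) and positive at E13.5 (1.008, 0.25 and 1.52). In pools 1 and 2 it was 1.53 and 2.18 at E10.5 and -0.04 and -8.89 at E13.5. The E10.5 values of these pools rest on 1 *Cd44* positive Lgr5-GFP+ cell each, with 63 of 77 and 210 of 216 reads.

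The share of *Cd44* positive cells followed the library pool. Among E13.5 bulk cells it was 23.5% and 26.5% in pools 1 and 2, and 72.7%, 85.3% and 79.2% in pools 3, 4 and 5. *Car2* was positive in 90.9 to 100% of the same cells in every pool, but with a median level this far above the threshold the share can hardly show a split. In E10.5 bulk, where it can, the *Car2* level was 42.3 and 64.03 RPM in pools 1 and 2 and 417, 605 and 380 RPM in pools 3, 4 and 5, and 2.38% and 7.32% of the cells had more than 100 *Car2* reads, against 29.3%, 40.5% and 18.9%. Among E10.5 bulk cells, 0 of 42 (which allows up to 7.14%) and 1 of 41 were *Cd44* positive in pools 1 and 2, against 11 of 41, 16 of 42 and 8 of 37 in pools 3, 4 and 5. Pools 1 and 2 are those with fewer genes detected per cell, and the part of this in the *Cd44* and *Car2* values was not tested.

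**Figure D2:**
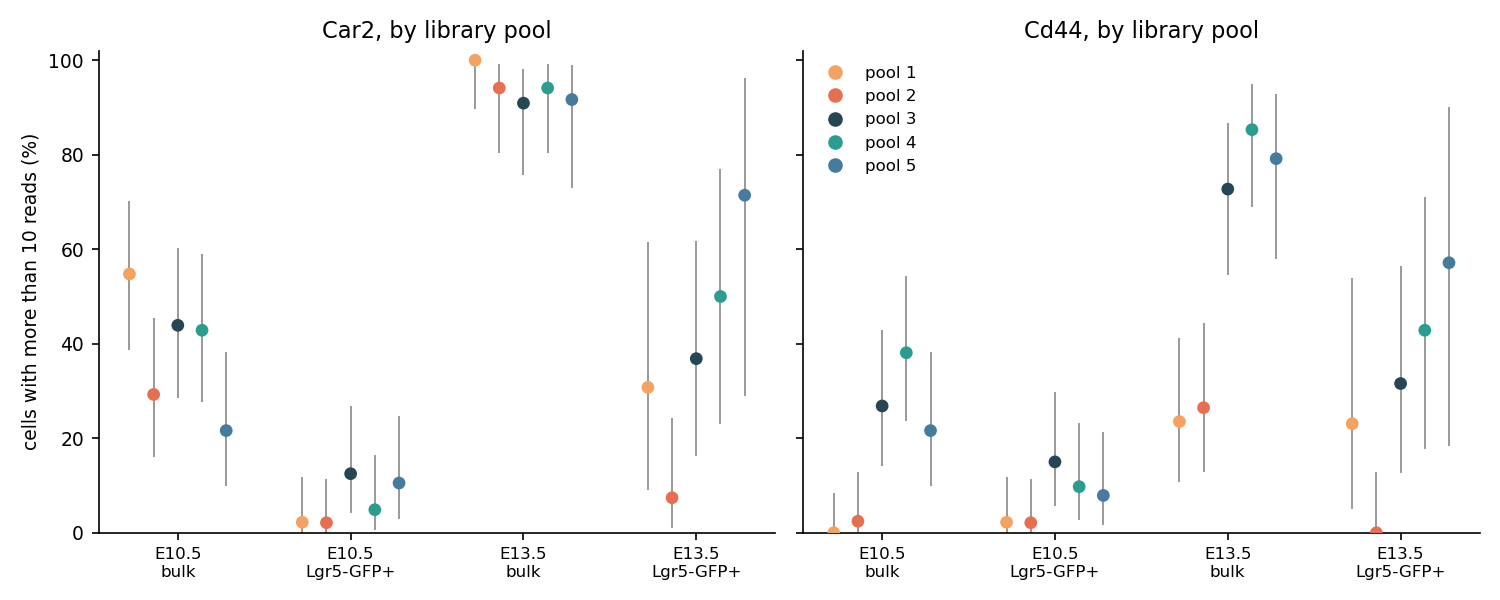
Percent of cells with more than 10 reads of *Car2* (left) and *Cd44* (right), by group and library pool, with exact 95% intervals. In E13.5 bulk the *Cd44* points of pools 1 and 2 lie at 23.5% and 26.5%, and those of the other pools between 72.7% and 85.3%, while the *Car2* points of that group lie between 90.9% and 100%.

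Of all cells, 19.1% were positive for both genes, 21.7% for *Car2* alone, 34 cells (5.21%) for *Cd44* alone and 352 cells (53.9%) for neither. *Cd44* positive cells made up 46.8% of the *Car2* positive cells (40.7 to 52.996%) and 8.81% of the others (6.18 to 12.1%). This difference was seen in E10.5 bulk, at 39.2% against 4.03%, but not in E13.5 bulk, where 82 of 150 *Car2* positive cells (54.7%) and 7 of 9 others were *Cd44* positive. Across all cells the Spearman correlation of their RPM was 0.42 (over all cells, which share pools and sorts, so that no p-value is given).

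**Figure D3:**
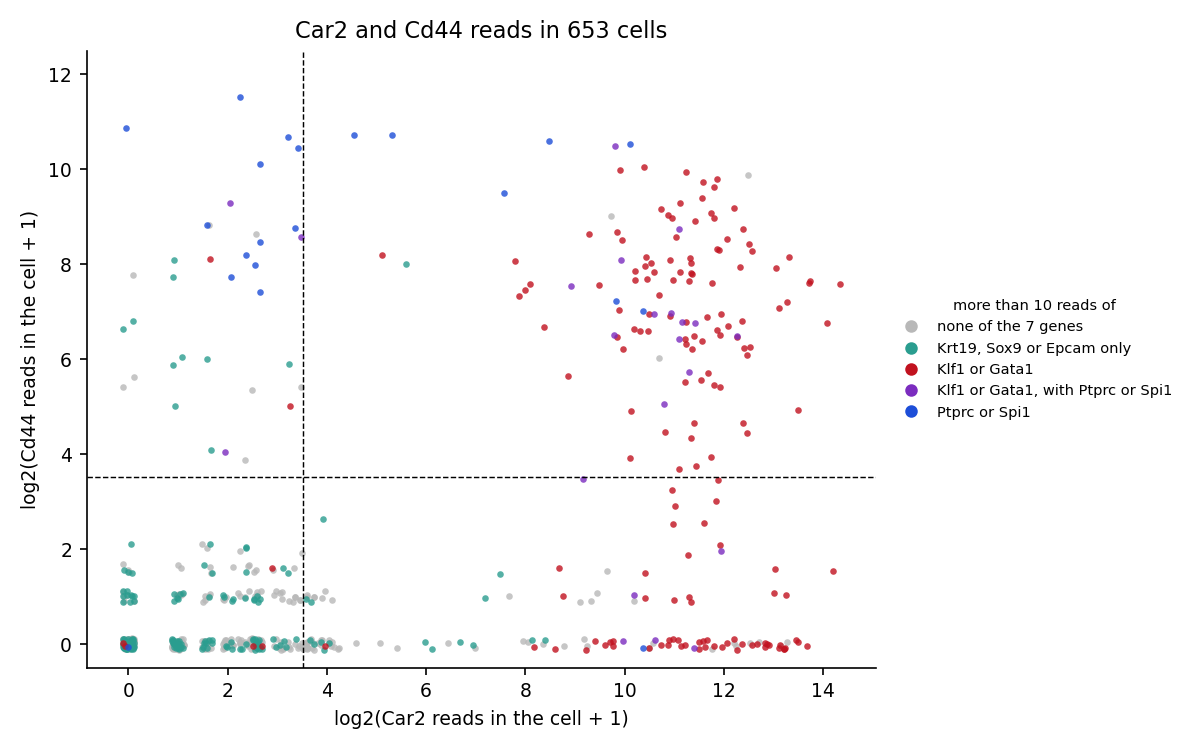
Reads of *Cd44* against reads of *Car2* in each cell, as log2 of reads plus 1 with a small random shift, with dashed lines at more than 10 reads and colours as for the plot of cells by group. The upper right field (19.1% of cells) is mostly red, the upper left field (34 cells) holds blue, green and grey points, and the lower left field (352 cells) is green and grey.

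The cells with *Car2* reads were mostly cells with erythroid reads. Of the 267 *Car2* positive cells, 180 (67.4%, 61.4 to 73.003%) were positive for *Klf1* or *Gata1*, against 9 of 386 other cells (2.33%, 1.07 to 4.38%). *Klf1* was read in 60.7% and *Gata1* in 55.4% of them. Leukocyte genes were positive in 28 *Car2* cells (10.49%), against 3.89% of the others, and 20 of the 28 had erythroid reads too. Biliary genes went the opposite way, with 19 of 267 *Car2* positive cells (7.12%, 4.34 to 10.9%) and 40.7% of the 386 others (35.7 to 45.8%). The erythroid share was higher among *Car2* positive cells in every pool, at 53.2%, 46.8%, 70%, 86.4% and 82.1% in pools 1 to 5, against 0 to 5.56% of the others.

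Counted over all groups together, each biliary gene was positive in a smaller share of the *Car2* positive cells. *Sox9*, a transcription factor of duct cells that mesenchyme and other tissues also use, was positive in 14 *Car2* positive cells (5.24%) and in 33.4% of the others. *Epcam*, an epithelial adhesion molecule, was positive in 7 (2.62%) against 10.4%, and *Krt19*, a duct keratin, in 5 (1.87%) against 6.99%. At least 2 of the biliary genes were positive in 6 *Car2* positive cells (2.25%), against 31 of 386 others (8.03%), and all 3 in 1. The groups differ in both kinds of reads, and within E10.5 Lgr5-GFP+ cells the order was not the same. There *Epcam* was positive in 5 of 13 *Car2* positive cells (38.5%, 13.9 to 68.4%) and 15.2% of the others, *Krt19* in 3 (23.1%) and 9.09%, and *Sox9* in 6 (46.2%) and 43.9%. At least 2 biliary genes were positive in 5 of the 13 (38.5%) and 12.1% of the others, a difference that rests on few cells. The 6 cells of all groups with at least 2 biliary genes had between 63 and 328 *Car2* reads and 0 or 1 *Cd44* reads, and 5 of them were E10.5 Lgr5-GFP+ cells and 1 an E10.5 bulk cell. All 6 also met a wider cholangiocyte list (at least 3 of 11 genes, of which *Krt19*, *Sox9* and *Epcam* are part).

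*Cd44* positive cells carried erythroid or leukocyte reads in 86.2% (79.8 to 91.1%), against 73 of 494 other cells (14.8%, 11.8 to 18.2%). *Klf1* or *Gata1* was positive in 74.2%, *Ptprc* or *Spi1* in 36 (22.6%), and a biliary gene in 14 (8.81%, 4.90 to 14.3%), the last against 32.8% of the other cells. All 15 *Ptprc* positive cells were *Cd44* positive, with *Cd44* levels between 12.7 and 2027 RPM, and 0 of the 494 *Cd44* negative cells had more than 10 *Ptprc* reads (which allows up to 0.607%). Only 7 of the 15 were *Car2* positive. The erythroid share of *Cd44* positive cells lay between 58.3% (pool 1) and 80% (pool 4), and that of the other cells between 6.94% and 21.3%.

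**Figure D4:**
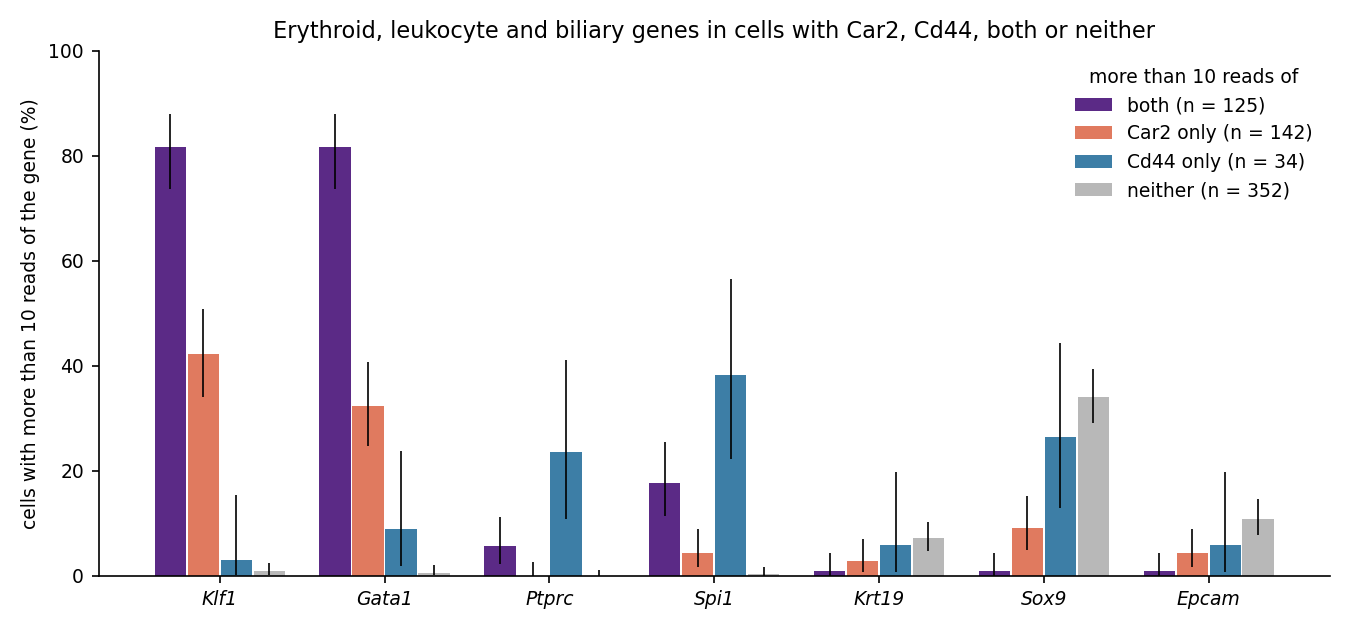
Percent of cells with more than 10 reads of each erythroid, leukocyte and biliary gene, in cells positive for *Car2* and *Cd44*, for 1 of them or for neither, with exact 95% intervals. *Klf1* and *Gata1* stand at 81.6% each where both genes were read, *Ptprc* and *Spi1* are highest where *Cd44* was read alone (23.5% and 38.2%), and *Sox9* is highest where neither was read (34.1%).

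Both genes together were read mostly in cells with erythroid or leukocyte reads. Of the cells with both, 96.8% (92.01 to 99.1%) had erythroid or leukocyte reads, 3 had a biliary gene and 0 had 2 biliary genes (which allows up to 2.40%). *Car2* alone was more mixed, with 67 cells (47.2%) of the erythroid or leukocyte class and 60 (42.3%) with none of the 7 genes. *Cd44* alone was split between leukocyte reads (14 of 34 cells, 41.2%), biliary reads (11 cells, 32.4%) and none of the genes (8 cells, 23.5%).

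By stage and sort, the overlap differed in size. In E13.5 bulk, 130 *Car2* positive cells (86.7%) had erythroid reads and 1 (0.667%) a biliary gene, in a group where 83.02% and 1.26% of all cells had them. In E10.5 bulk, 40 of 79 *Car2* positive cells (50.6%) had erythroid reads, against 5 others (4.03%), and 9 (11.4%) had a biliary gene, against 46 others (37.1%). Of the 40 E10.5 bulk cells with more than 100 *Car2* reads, 38 had erythroid reads. In E10.5 Lgr5-GFP+ cells only 2 of 13 *Car2* positive cells had erythroid reads and 8 (61.5%, 31.6 to 86.1%) a biliary gene, beside 52.5% of the others. In E13.5 Lgr5-GFP+ cells, 8 of 25 had erythroid reads, 7 leukocyte reads and 1 a biliary gene.

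For *Cd44*, 33 of 36 positive E10.5 bulk cells (91.7%) and 78 of 89 positive E13.5 bulk cells (87.6%) had erythroid reads, against 7.19% and 77.1% of the other cells of these groups. In E13.5 Lgr5-GFP+ cells, 15 of 19 *Cd44* positive cells (78.9%, 54.4 to 93.9%) had leukocyte reads, against 0 of 61 others (which allows up to 4.92%). In E10.5 Lgr5-GFP+ cells, 10 of 15 (66.7%, 38.4 to 88.2%) had a biliary gene, beside 52.04% of the others, and 2 had erythroid reads. The intervals of these last values overlap, so a difference was not detectable with so few cells.

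Cells grouped by their *Car2* reads showed where the overlap set in. With 0, 1 to 10 and 11 to 100 *Car2* reads (the second and the third group with 251 and 53 cells), the erythroid share was 1.48%, 2.79% and 5.66%. It was 54.2% (39.2 to 68.6%) with more than 100 and up to 1000 reads (48 cells) and 90.96% (85.5 to 94.9%) with more. The biliary share over the same groups went from 48.9% over 36.3%, 20.8% and 14.6% to 0.602%. For *Cd44* the erythroid share was 13.6% at 0 reads and 16.4% at 1 to 10, and 73.1%, 81.7% and 68.5% at 11 to 50, 51 to 200 and more reads. The leukocyte share went from 1.39% at 0 *Cd44* reads to 27.4% in the 73 cells with more than 200 reads. Stage and sort move with these groups, since the cells highest in *Car2* include 30 E10.5 bulk and 4 E13.5 Lgr5-GFP+ cells and are otherwise E13.5 bulk, as are 37 of the 73 highest in *Cd44*, and their part in the shares was not tested.

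**Figure D5:**
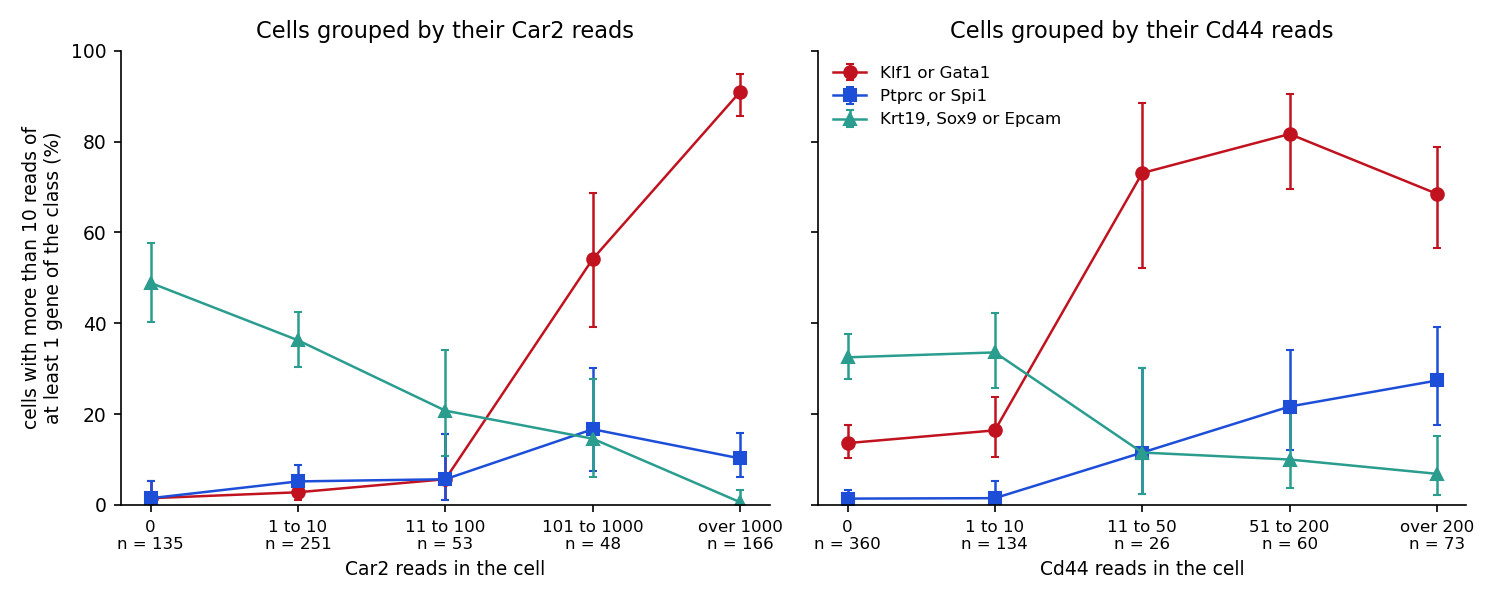
Percent of cells positive for an erythroid, leukocyte or biliary gene, in cells grouped by their *Car2* reads (left) and *Cd44* reads (right), with exact 95% intervals and the number of cells under each group. The erythroid line stays at 5.66% or less up to 100 *Car2* reads and reaches 90.96% above 1000, whereas for *Cd44* it is already at 73.1% at 11 to 50 reads.

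The reads themselves were concentrated further. Of all 718555 *Car2* reads, 90.03% came from the erythroid class (28.9% of cells) and 0.237% from the cells (25.9%) with biliary reads only. Of the 51187 *Cd44* reads, 55.2% came from the erythroid class and 36.5% from just 21 cells with leukocyte and no erythroid reads, and 2.55% from the cells with biliary reads only. The 10 cells with the most *Cd44* reads held 33.01% of them, and 9 of these had leukocyte reads and 7 were E13.5 Lgr5-GFP+. The 10 cells with the most *Car2* reads held 19.8%, and all were E13.5 bulk cells of the erythroid class.

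Within the erythroid class the genes differed between the stages. In bulk cells with erythroid and no leukocyte reads, *Car2* was 1313 RPM (1303 to 1323) in 38 cells at E10.5, with values from 1.10 over a median of 1339 to 4630 RPM. It was 4012 RPM (4001 to 4023) in the E13.5 cells, from 237 over 3124 to 16652 RPM, and the ranges overlap. With leukocyte reads allowed, the log2 ratio was 1.56 and lay between 1.15 and 2.31 in the 5 pools, of which pool 1 has only 2 E10.5 cells. *Cd44* stood at 131.8 RPM (128.6 to 134.97) at E10.5 and 128.8 RPM (126.9 to 130.8) at E13.5 in the same cells. With leukocyte reads allowed its log2 ratio was -0.04, with values of both signs in the pools, 3.01, -0.84, 1.25 and -0.81 in pools 2 to 5, and *Cd44* was at 0 in the 2 E10.5 cells of pool 1. Summed over pools, the stage difference of *Cd44* over all bulk cells was thus not seen inside the erythroid class. There the pools differ from each other by more than the stages do in sum. *Cd44* was higher at E13.5 in pools 1 (114.6 RPM), 2 and 4, and lower in pools 3 and 5. Pools 1 and 2, which detect fewer genes, hold a larger part of the E13.5 than of the E10.5 cells of this class. Whether this mix of pools hides a stage difference was not tested.

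*Cd44* was highest in leukocyte cells. In the 11 E13.5 Lgr5-GFP+ cells with leukocyte and no erythroid reads it was positive in all, from 237 over a median of 1057 to 2027 RPM, and summed to 1042 RPM (1025 to 1059). The 9 such E13.5 bulk cells summed to 449 RPM (436 to 463), with 8 positive. *Car2* in the same cells was 20.5 RPM in the Lgr5-GFP+ cells and 510.8 RPM in the bulk cells, with 3 of 11 and 5 of 9 cells positive.

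Some *Car2* positive cells, 79 of 267 (29.6%), had neither erythroid nor leukocyte reads, and they were not alike. In E10.5 bulk, 37 of 39 such cells had 11 to 22 reads, inside the low band, 16 of the 39 met a mesenchyme list (at least 3 of 8 genes), and 25 met the erythroid list of 20 genes with the globins, which 52.5% of all cells met. In E13.5 bulk, 13 of 15 had between 446 and 10240 reads. Of these 15, 12 met the erythroid list with the globins, and 5 met it without globins, *Klf1* and *Gata1*. In E13.5 Lgr5-GFP+ cells, 7 of 14 met the erythroid list with the globins and 9 met an endothelial list (at least 3 of *Pecam1*, *Cdh5*, *Kdr*, *Tek*, *Tie1*, *Lyve1* and *Stab2*), although the sort was against CD31, the *Pecam1* product. In E10.5 Lgr5-GFP+ cells, 5 of 11 met the cholangiocyte list. Of the 22 *Cd44* positive cells without erythroid or leukocyte reads, 12 met the mesenchyme list, 2 the cholangiocyte list and 13 were E10.5 Lgr5-GFP+ cells. The mesenchyme list was common among all cells without such reads. Of those that met it, 10.58% were *Car2* positive and 5.77% *Cd44* positive. With biliary reads only, the shares were 9.47% and 6.51%, and with none of the 7 genes 22.99% and 4.01%. Meeting the mesenchyme list thus did not set the positive cells apart.

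Seen from the other side, few cells with a duct profile were positive for either gene. Of the 37 cells with at least 2 biliary genes, 29 were E10.5 Lgr5-GFP+ cells, and 5 of these 29 (17.2%, 5.85 to 35.8%) were *Car2* positive. In that group as a whole, which includes these 29 cells, 6.16% were (3.32 to 10.3%). The intervals overlap, but a part set against its own whole understates a difference, and the 5 cells are few. Of the 36 cells that met the cholangiocyte list, 6 were *Car2* positive (16.7%, 6.37 to 32.8%) and 2 *Cd44* positive (5.56%). Summed over all 36 cells, the level was 19.3 RPM for *Car2* and 1.43 RPM for *Cd44*. The 67 cells that met the hepatoblast list had 7 *Car2* positive cells (10.4%) and 5 *Cd44* positive cells (7.46%), so the duct and hepatoblast shares were not separable with these numbers. Of the cells that met the erythroid list without globins, *Klf1* and *Gata1*, 98.2% were *Car2* positive and 64.3% *Cd44* positive. Summed over all cells that met this list, the levels were 3230 and 128.1 RPM. In the 24 cells with a megakaryocyte profile (at least 3 of 8 genes, among them *Itga2b* and *Pf4*), 23 were *Car2* positive and 18 *Cd44* positive.

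The clusters were rebuilt from the deposited normalised table, which holds *Car2*, *Klf1*, *Gata1*, *Ptprc* and *Spi1* but none of *Cd44*, *Krt19*, *Sox9* and *Epcam*. Since *Car2* was among the genes clustered, its place in a cluster is no finding. The same holds for *Klf1*, *Gata1*, *Ptprc* and *Spi1*, so the shares with erythroid or leukocyte reads are partly built in. Cluster 2 (216 cells) held 74.5% of the *Car2* positive cells, 86.8% of the *Cd44* positive cells and 97.6% of those with both. Erythroid or leukocyte reads were present in 93.1% of its cells (88.8 to 96.1%), a biliary gene in 2 (0.926%, 0.112 to 3.30%) and 2 biliary genes in 0 (0 to 1.69%). In clusters 1 (376 cells) and 3 (61 cells), 39.9% and 39.3% of the cells had a biliary gene, but only 8.51% and 8.20% had at least 2. At a finer Louvain resolution (0.2), a small cluster appeared in which 89.5% of the cells had at least 2 biliary genes. Of its cells, 26.3% were *Car2* positive and 10.53% *Cd44* positive. It held 1.87% of all *Car2* positive and 1.26% of all *Cd44* positive cells. *Sox9*, *Epcam* and *Krt19* were positive in 130, 32 and 29 cells of cluster 1 and in 13, 14 and 2 cells of cluster 3. In the rebuilt cluster that *Car2* and *Cd44* mark, the name cholangiocyte-like was thus not borne out by these duct genes. Its cells were not compared with those of the study's own cluster, and it is called cluster 2 here. The study had named its cluster from marker genes and published liver data, and had lineage tracing for early cholangiocyte commitment besides. Rebuilt without *Car2*, *Cd44* and the 7 genes, cluster 2 again had 216 cells and the same shares of *Car2* and *Cd44* positive cells. The other clusters then had 321, 61 and 55 cells. Only *Car2*, *Klf1*, *Gata1*, *Ptprc* and *Spi1* could be taken out, since the table did not hold the rest. *Bcl11a* was the other gene named for the study's cluster. It was positive in 52.1% of the *Car2* positive cells and 57.2% of the *Cd44* positive cells, against 25.1% and 29.4% of the others.

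Outside cluster 2, the 68 *Car2* positive cells had a median of 15.5 reads and at most 873, against a median of 2495 inside, and 17 of them had a biliary gene. The 21 *Cd44* positive cells outside had a median of 99 reads, and 13 of them had a biliary gene. Of all cells in clusters 1 and 3, 39.9% and 39.3% had a biliary gene. The count for *Car2* lies below these shares and that for *Cd44*, on few cells, above them.

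The genes whose RPM ran most alike with *Car2* over all cells, among 10352 genes, were *Klf1* (Spearman 0.76), *Ermap* (0.75), a red cell membrane protein, *Vamp5* (0.74), *Mt1* (0.74), a metallothionein, and the globins *Hbb-bs* (0.74) and *Hbb-bt* (0.72). *Cited4* (0.71), *Gata1* (0.68) and *Hba-a1* (0.68) were also among the 10 likest genes. Only uniquely aligned reads were counted, so reads that fit several near-identical globin copies are missing from the counts of these genes. Against *Car2*, the correlation was 0.10 for *Spi1*, -0.33 for *Sox9* and -0.24 for *Epcam*. *Cd44* had 0.42 and was not among the 10 likest genes. For *Cd44* the likest genes were weaker, led by *Mir142hg* (0.52), the host gene of a blood cell miRNA, *Fermt3* (0.48), an integrin partner of blood cells, and *Rac2* (0.48), a GTPase of white cells. *Serinc3*, *Runx1*, *Adgrg1*, *H2-D1*, *Tal1*, *Unc13d* and *Ptpn6* had correlations between 0.46 and 0.43. *Runx1* and *Tal1* are transcription factors of blood progenitors. *Car2* was at rank 15 for *Cd44*, and *Sox9* and *Epcam* had correlations of -0.16 and -0.07. These are correlations over cells that share groups and pools, given as a description.

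Among the 16 carbonic anhydrases, *Car2* had the highest level per exonic length in bulk cells, at 125.9 RPKM (reads per 1000 bases of exon and per 1000000 reads) in E10.5 bulk and 1433 RPKM in E13.5 bulk. *Car1*, the other cytosolic red cell isoform, went from 37.3 to 209.03 RPKM in these groups and was positive in 80 of the 267 *Car2* positive cells (29.96%) but in 1 of 386 others. *Car14*, a membrane isoform, went from 48.8 to 0.277 RPKM, and was positive in 20 *Car2* positive cells (7.49%) and 33.9% of the others. *Car4*, also bound to the membrane, was highest in E10.5 Lgr5-GFP+ cells at 34.6 RPKM. There it was above *Car2* at 4.49 RPKM and below *Car14* at 53.03 RPKM. *Car3*, a cytosolic isoform known from muscle, was highest in E13.5 Lgr5-GFP+ cells at 122.1 RPKM, beside 103.1 RPKM for *Car2*. From E10.5 to E13.5 in bulk, *Car1* and *Car2* were more than 2-fold higher, and 8 of the 13 isoforms with enough reads were more than 2-fold lower, as were 38.9% of all genes (median log2 ratio -3.03, against -0.38 for all genes). In Lgr5-GFP+ cells 7 of 13 were more than 2-fold higher and 5 lower, against 22.8% and 31.5% of all genes. *Car5a* and *Car15* are listed at 0.

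The transport genes of the red cell went both ways in bulk cells. Of 10 genes, 6 were more than 2-fold higher at E13.5, against 14.8% of all genes, and 3 were more than 2-fold lower (*Slc4a2*, *Slc4a7* and *Slc26a6*), against 38.9%. Among the 6 were *Slc4a1*, the bicarbonate and chloride exchanger of the red cell, *Rhag* and *Rhd* of the Rh complex, and *Kcnn4*, a potassium channel. *Rhag* was positive in 39.3% of the *Car2* positive cells and 1 other cell, and *Kcnn4* in 51.7% and 4 others. *Slc4a1* was positive in 31 *Car2* positive cells (11.6%) and 1 other. The median log2 ratio of the list was 3.23, against -0.38 for all genes.

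For *Cd44*, the level per length was 4.82 RPKM in E10.5 bulk, 0.958 in E10.5 Lgr5-GFP+, 19.97 in E13.5 bulk and 27.1 RPKM in E13.5 Lgr5-GFP+ cells. The genes around hyaluronan did not share its stage difference in bulk, where 0 of 8 with enough reads were more than 2-fold higher and 6 were lower, among them the synthases *Has1*, *Has2* and *Has3* (against 14.8% and 38.9% of all genes). In Lgr5-GFP+ cells, 5 of 10 were more than 2-fold higher with *Cd44* and 3 lower, against 22.8% and 31.5%. In E13.5 Lgr5-GFP+ cells the other hyaluronan receptors *Lyve1*, *Stab1* and *Stab2*, which liver endothelium carries, stood at 244, 25.8 and 21.03 RPKM, against 0.0850, 0.0137 and 0.00966 RPKM in E13.5 bulk. *Lyve1* was positive in 3 *Cd44* positive cells (1.89%) and in 17 others (3.44%). *Srgn*, the blood cell proteoglycan serglycin and a ligand of CD44, was positive in 99 *Cd44* positive cells (62.3%) and 35 others (7.09%), with 10.47 RPKM in E10.5 bulk and 135.4 RPKM in E13.5 bulk. Other ligands went the opposite way, with *Fn1*, fibronectin, in 15.1% of *Cd44* positive cells and 57.5% of the others, and *Vcan*, versican, in 9.43% and 33.6%. *Spp1*, osteopontin, was positive in 2 cells of all groups, neither of them *Cd44* positive. Of the proteins that tie CD44 to the cytoskeleton, *Msn* (moesin) was positive in 70.4% of *Cd44* positive cells and 30.4% of the others and *Ank1* (ankyrin of the red cell) in 45.3% and 8.91%, whereas *Esrp1* and *Esrp2*, the epithelial splicing factors that act on CD44, were positive in 0.629% and 1.89%, against 2.43% and 2.63%.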

How the data were processed

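The authors sorted single cells, prepared Smart-seq2 libraries without molecular identifiers, sequenced single-end reads of 50 bases, aligned them with STAR (2.6.0c) to GRCm38 with spike-in sequences and counted uniquely aligned reads per Ensembl gene with Subread (1.6.2). They kept cells with more than 100000 reads and within limits on mitochondrial reads, spike-in reads and detected genes. The deposited counts are raw read counts of 54195 genes per cell, of which 54042 were named with GENCODE on the same build, and 0 columns were left unused. The deposited normalised table holds a score per gene and cell (scran size factors and mutual nearest neighbour correction by the authors), and was used for clusters only. How strand was treated in counting is not given in the sources used here.

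Cells were grouped by stage and sort as labelled. A cell was positive with more than 10 reads, and a cell type list was met with at least 3 genes. RPM and RPKM were computed here from summed counts. Intervals are exact (Clopper-Pearson for shares, Poisson for summed reads), and where a count was 0 the highest value it allows was taken as 3 counts. Reads per cell ran from 463347 to 2279700. Stage and sort ratios were set beside all genes with at least 100 reads in the groups compared, where genes at 0 in 1 group count as past 2-fold. Likeness was Spearman's correlation with genes positive in at least 5% of cells, and the 10 likest genes were named together with *Car2*, *Cd44*, the 7 genes and fixed lists, except for an item that is not reported here. Clusters used scanpy (1.11.5) with 20 components, 15 neighbours and Louvain resolution 0.05. TMM factors came from edgeR (4.0.16), and scipy (1.17.1) did the rest. The scripts were tested on simulated data. No test was run, since each group is 1 sample. Cells carry library pool labels, and 230 of 365 index pairs were used in more than 1 pool. No cells had identical counts (0 found). Doublets were not called. The genes and lists were chosen with earlier results of these data known. Alternatives were other thresholds, equal depth, other scalings and leaving out pools.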

Additional observations from a re-analysis of the deposited data

Results flagged for a closer look

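*Cd44* in Lgr5-GFP+ relative to bulk cells had log2 RPM ratios of opposite sign at the 2 stages, -2.33 at E10.5 (6.49 against 32.7 RPM) and 0.44 at E13.5 (183.7 against 135.3 RPM). The difference between the stages was not tested, since each group is 1 sample. It was seen in pools 3, 4 and 5. In pools 1 and 2 the ratios were 1.53 and 2.18 at E10.5 and -0.04 and -8.89 at E13.5, and together 1.99 and -1.006. At E10.5 each of these 2 pools had only 1 *Cd44* positive Lgr5-GFP+ cell. That cell held 63 of 77 reads in pool 1 and 210 of 216 in pool 2, against 25 and 42 reads in all bulk cells. At E13.5 the share of *Cd44* positive cells was lower in Lgr5-GFP+ cells (23.8%) than in bulk (55.97%) while the level was higher, and 92.8% of the *Cd44* reads of the Lgr5-GFP+ cells came from 15 cells with *Ptprc* or *Spi1* reads.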

How the results depend on the processing

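Each group is 1 sample, so intervals cover counting error only, and animals, litters and sorts cannot be told apart from stage and sort. No paired analysis was possible because the results come from no test, with 1 sample a group. Ratios within each of the 5 pools, which hold cells of all groups, were set side by side instead. Pools 1 and 2 detect fewer genes, and low counts are limited by depth and by the threshold. Counting a cell with at least 1 read as positive gave *Car2* shares of 98.03%, 43.1%, 100% and 86.2% in E10.5 bulk, E10.5 Lgr5-GFP+, E13.5 bulk and E13.5 Lgr5-GFP+ and *Cd44* shares of 44.3%, 27.5%, 68.6% and 45%. The overlap of *Car2* was then 75.7% erythroid, 25.3% leukocyte and 43.1% biliary, and that of *Cd44* with biliary reads 40.6%. With more than 50 reads, the *Car2* share of E10.5 bulk was 19.7%, its erythroid overlap 78.9% and the *Cd44* share of E13.5 bulk 46.5%. With more than 10 RPM, the *Car2* share of E10.5 bulk was 31.5%, and with cells thinned to 400000 reads it was 20.2% and the erythroid overlap 78.8%.

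Without library pools 3, 4 and 5, *Car2* shares were 2.17% in E10.5 and 15% in E13.5 Lgr5-GFP+ cells, and its overlap was 50.5% erythroid and 3.67% leukocyte. *Cd44* shares were 1.205%, 2.17%, 25% and 7.50% in the 4 groups, and its overlap 60.9% erythroid and 4.35% biliary. The stage log2 ratios without these pools were 5.81 (bulk) and 2.50 (Lgr5-GFP+) for *Car2* and 7.12 and 4.13 for *Cd44*. The ratios of Lgr5-GFP+ over bulk cells, recomputed only after seeing the data, were then -3.01 at E10.5 and -6.32 at E13.5 for *Car2*. For *Cd44* they changed sign at both stages, to 1.99 at E10.5 and -1.006 at E13.5. The E10.5 value rests on 1 positive Lgr5-GFP+ cell in each of pools 1 and 2. No other value recomputed under an alternative changed its sign. Under TMM, which moved all genes by 0.20 in bulk and 0.04 in Lgr5-GFP+ cells (log2), the bulk ratios were 3.71 for *Car2* and 2.25 for *Cd44*, and those of Lgr5-GFP+ over bulk at E13.5 -3.98 and 0.26. With the mean of cell RPM, ratios were 4.33 for *Car2* in Lgr5-GFP+ cells, and 2.23 in bulk and 4.56 in Lgr5-GFP+ cells for *Cd44*. Those of Lgr5-GFP+ over bulk were -4.56 and -3.75 for *Car2* and -2.13 and 0.20 for *Cd44* at E10.5 and E13.5. Of the 10 likest genes, Pearson's correlation shared 6 for *Cd44*, E10.5 cells alone 4 for *Cd44*, and E13.5 cells alone 4 for *Car2* and 3 for *Cd44*. At Louvain resolution 0.2, the cluster with most of these cells held 64.8% of *Car2* and 64.2% of *Cd44* positive cells.

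Leaving out 1 pool at a time gave stage log2 ratios for *Car2* of 3.23 to 3.94 in bulk and 4.24 to 4.77 in Lgr5-GFP+ cells, and for *Cd44* of 1.71 to 2.39 and 4.50 to 5.20. Those of Lgr5-GFP+ over bulk were -5.10 to -4.20 at E10.5 and -4.15 to -3.47 at E13.5 for *Car2*, and -2.54 to -1.98 and 0.14 to 0.70 for *Cd44*, the last being 0.14 without pool 3. *Car2* shares in E13.5 Lgr5-GFP+ cells were then 27.3% to 43.4%, and *Cd44* shares 12.4% to 22.4% in E10.5 bulk, 48% to 64.8% in E13.5 bulk and 19.7% to 35.8% in E13.5 Lgr5-GFP+ cells. In 2 further alternatives chosen after seeing the data, the erythroid overlap was 82.7% for cells with more than 100 *Car2* reads and 79.1% without pools 1 and 2. Of all values recomputed, 94 counted as moved without changing sign, and the cause was not tested. For ratios the limit was an interval of counting error only, so small shifts count, such as 3.51 to 3.53 for *Car2* in bulk without pool 3. The counts of shared likest genes among them have no interval.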
